A study of Homo sapiens with 13 samples.

Results

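The genes described here are those for cytokines, chemokines and their receptors in human myeloma cells in which IRF4 was knocked down. They were chosen by symbol: interleukins and their receptors, chemokines and chemokine receptors, the TNF and TNF receptor families, colony stimulating factors and their receptors, the TGF-beta and BMP families, and in addition LTA, LTB, TNF, GPR183 (older name EBI2) and VEGFA. TNFRSF17, the BCMA receptor, was left out of the choice. A gene was kept if at least 1 of its array features carried a value on 7 or more of the 13 arrays, and its features were averaged. This kept 106 of the 139 annotated genes that match, through 215 of their 406 features, out of 3841 named genes and 6948 named genes and unnamed features on as many arrays.

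The study hybridised RNA of 2 cultures of a myeloma cell line to each Lymphochip, a spotted cDNA array for lymphoid genes. Both cultures had been infected with a hairpin construct that doxycycline switches on: shIRF4, against IRF4, in the Cy5 channel, and shluc, against luciferase, in the Cy3 channel as the control. In KMS12 there were 3 culture series, named 1332, 1332b and 2046 after their hairpins, each hybridised before doxycycline, in an early window of 2 to 3 days and in a later one of 4 to 5 days at 20 ng/ml, and series 1332 also at day 7. Hairpin 2046 was used at day 4 in the other lines, H929 with 2 arrays and SKMM1 with 1. KMS12 thus gave 3 arrays per window and 3 uninduced ones. Series 1332 was sampled at days 3, 5 and 7 and the others at days 2 and 4, so day and series cannot be told apart within a window. Whether repeats were grown as separate cultures is not stated, so a p-value below measures the spread of these arrays, part of which may be technical. All values below are log2 ratios of the IRF4 hairpin culture over the luciferase hairpin culture. From each array the median of 6879 often measured features was subtracted. A value of 0 thus means the median ratio of those features, which need not be the median of all features on that array. Values of 3 KMS12 arrays stand in the order of series 1332, 1332b and 2046, those of H929 in the order of repeats 1 and 2, and "no value" stands for a feature left blank on that array.

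Cytokines are secreted proteins through which immune cells instruct each other, and each acts through a membrane receptor. Interleukins and colony stimulating factors signal largely through Janus kinases and STAT factors, TNF family ligands through receptors that bind TRAF or death domain adaptors, TGF-beta and BMP ligands through receptor kinases that phosphorylate SMAD proteins, and chemokines through G protein coupled receptors that guide migration. Myeloma cells, the malignant form of plasma cells, live in bone marrow, where interleukin 6, APRIL and BAFF support their survival, and where CXCL12 holds CXCR4-bearing plasma cells in place. IRF4 is a transcription factor of the interferon regulatory factor family that plasma cells require, and it binds DNA at interferon response elements and, with an ETS factor, at composite elements.

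To show what such elements look like in these genes, the 250 bases before the start site were taken from RefSeq (GRCh38.p14), where 82 of the 106 genes had an entry. The interferon response element was searched as GAAA, any 2 bases and GAAA again, and the ETS-IRF composite element as GGAA, any 2 bases and GAAA, each on both strands. The motifs differ in letter 2, so no stretch of bases matches both in one orientation. The first was found in 8 of the 82 promoters (9.76%) and in 839 of all 27305 promoters (3.07%). The second was found in 4 of the 82 (4.88%) and in 665 of all (2.44%). The 8 were CXCL9, CXCL10, IL17B, IL18RAP, IL24, TNFRSF1B, TNFSF9 and TNFSF10, and the 4 were GPR183, IL12RB1, IL23A and TNFSF10. A match is a string of letters, not a site shown to be bound. Printed below, 5′ to 3′ along the gene's own strand with the matches in capitals, are BMP6 (chr6:7725849-7726098, plus strand), which passed the test in H929, CXCL9 (chr4:76007510-76007759, minus strand), CXCL10 (chr4:76023498-76023747, minus strand) and IL18RAP (chr2:102418371-102418620, plus strand), 3 genes with the interferon element whose single array values are given below, GPR183 (chr13:99307400-99307649, minus strand) with the composite element, and TNFSF10 (chr3:172523431-172523680, minus strand), whose promoter alone held both.
BMP6: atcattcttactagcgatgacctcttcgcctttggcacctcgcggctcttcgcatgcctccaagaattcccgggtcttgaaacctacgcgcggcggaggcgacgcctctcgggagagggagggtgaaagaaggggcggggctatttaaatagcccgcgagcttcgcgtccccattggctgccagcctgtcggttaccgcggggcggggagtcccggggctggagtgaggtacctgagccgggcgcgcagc
CXCL9: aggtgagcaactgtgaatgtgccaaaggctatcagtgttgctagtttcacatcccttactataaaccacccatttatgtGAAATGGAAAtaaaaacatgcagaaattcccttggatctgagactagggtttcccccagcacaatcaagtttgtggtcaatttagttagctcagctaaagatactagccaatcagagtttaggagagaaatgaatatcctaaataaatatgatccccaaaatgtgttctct
CXCL10: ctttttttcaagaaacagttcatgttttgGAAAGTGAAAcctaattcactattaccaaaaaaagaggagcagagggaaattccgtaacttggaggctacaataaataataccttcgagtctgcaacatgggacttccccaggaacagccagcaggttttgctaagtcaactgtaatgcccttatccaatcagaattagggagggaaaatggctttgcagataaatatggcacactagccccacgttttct
IL18RAP: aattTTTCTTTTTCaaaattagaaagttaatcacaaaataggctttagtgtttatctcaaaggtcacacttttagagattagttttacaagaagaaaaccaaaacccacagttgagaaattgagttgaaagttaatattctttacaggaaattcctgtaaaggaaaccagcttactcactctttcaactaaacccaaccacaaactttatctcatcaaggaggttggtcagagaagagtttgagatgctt
GPR183: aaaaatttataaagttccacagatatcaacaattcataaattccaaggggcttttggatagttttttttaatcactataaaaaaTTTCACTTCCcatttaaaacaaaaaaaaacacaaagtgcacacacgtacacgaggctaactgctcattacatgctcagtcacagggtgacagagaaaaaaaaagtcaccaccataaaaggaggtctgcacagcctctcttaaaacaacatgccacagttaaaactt
TNFSF10: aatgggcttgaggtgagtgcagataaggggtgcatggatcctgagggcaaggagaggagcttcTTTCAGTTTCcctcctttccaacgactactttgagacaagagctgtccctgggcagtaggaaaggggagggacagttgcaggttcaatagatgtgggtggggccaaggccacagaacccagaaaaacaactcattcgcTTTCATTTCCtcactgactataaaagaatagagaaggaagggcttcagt
No capitals stand in the BMP6 sequence because neither string of letters lies in that window. In CXCL10 the match spans positions -221 to -212 from the start site and in CXCL9 -171 to -162. The GPR183 match lies at -166 to -157 on the other strand. In TNFSF10 the interferon element lies at -187 to -178 and the composite element at -49 to -40, both on the other strand.

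The target came first as a check of the labels. IRF4 in the hairpin culture was 121.3%, 109.2% and 112.1% of the control culture without doxycycline, 43.2%, 29.1% and 54.2% at days 2-3, 63.8%, 56.8% and 59.5% at days 4-5 and 61.7% at day 7. It was 28.9% and 25.7% of control in H929 and 24.6% in SKMM1. All 10 induced arrays thus lay below all 3 uninduced arrays, and H929 and SKMM1 lay lower than every KMS12 array. IRF4 fell in H929 against 0 (log2 ratio -1.88, SE 0.20, limma adjusted p = 0.00626). That adjusted p was 0.127 without repeat 2, 0.0961 without repeat 1 and 0.078 with the H929 arrays fitted alone, settings under which 6, 1 and 0 of all genes passed, against 147. It did not pass the adjusted threshold in KMS12 against the uninduced arrays, at days 2-3 (log2 difference -1.48, SE 0.23, adjusted p = 0.104) or at days 4-5 (-0.93, SE 0.24, adjusted p = 0.693). A ratio carries no abundance, so neither the myeloma identity of the lines nor the level of a marker could be checked from these values. Features carrying a value numbered 7140 to 14228 per array, of 15246.

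Few of the 106 genes passed the test. Against 0, BMP6, a bone morphogenetic protein, and VEGFA, the main vascular endothelial growth factor, fell in H929 at day 4, 2 of 79 genes tested (2.53%), where 147 of 4858 of all genes and features passed (3.03%), 47 higher (0.967%) and 100 lower (2.06%). H929 and SKMM1 had no uninduced array and no array had its dyes swapped, so the part of a dye effect in their values against 0 was not tested. None of the 90 genes tested passed at days 2-3 in KMS12 with limma, none of 98 at days 4-5, none of 94 between these windows, none of 84 over the 3 lines with hairpin 2046, and none of 77 between H929 and KMS12. The shares called among all genes and features in the same order were 0.0%, 0.0%, 0.0%, 0.0% and 0.042%. At an unadjusted p under 0.05, 29 of the 90 lay past the threshold at days 2-3 (all genes 22.8%), 20 of the 98 at days 4-5 (6.9%), 9 of the 94 between the windows (14.9%), 9 of the 84 over the 3 lines (15%) and 5 of the 77 between the lines (15.1%). Their direction was mostly upward at days 4-5, with 19 higher (all genes 5.81%) and 1 lower (1.09%), and at days 2-3, with 23 higher (10.7%) and 6 lower (12.1%).

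Most of the genes lay higher against the uninduced arrays, and part of that lay in the uninduced arrays themselves. At days 2-3 the median log2 difference was 0.392 over 90 genes, 66 above 0 and 24 below, against 0.123 over all 5980 tested, 58.3% of them above 0. At days 4-5 it was 0.333 over 98 genes, 73 above and 25 below, against 0.121 over all 6521, 63.1% of them above 0. Values of 34 genes at days 2-3 lay above every uninduced value (37.8%; all genes 19.8%) and 22 at days 4-5 (22.4%; all genes 13.7%), while 9 lay below every one at days 2-3 (10%; all genes 14.2%) and 4 at days 4-5 (4.08%; all genes 4.36%). On single arrays the median of the genes was -0.384, 0.024 and -0.388 uninduced, 0.355, 0.227 and 0.088 at days 2-3, 0.226, 0.128 and 0.047 at days 4-5, 0.137 at day 7, 0.110 and 0.138 in H929 and 0.132 in SKMM1. The induced medians were thus all above 0 and above all 3 uninduced medians, and 2 of the 3 uninduced arrays stood well below 0. All genes and features had medians of -0.072, -0.014 and -0.232 on the uninduced arrays and of -0.028 to 0.089 on the induced arrays. Set against 0 in place of the uninduced arrays, the median was 0.194 at days 2-3 and 0.045 at days 4-5.

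**Figure D1:**
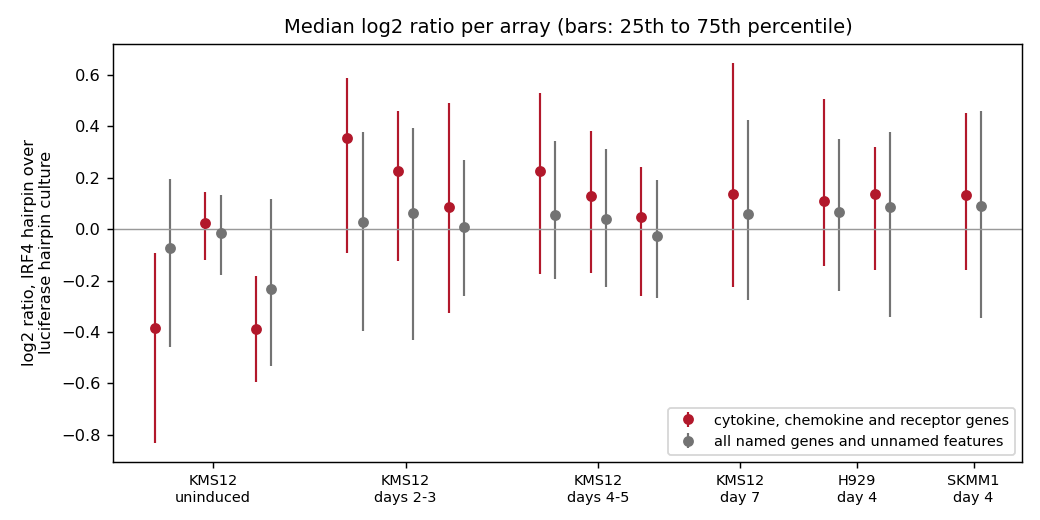
The plot gives the median log2 ratio on each of the 13 arrays, red for the cytokine, chemokine and receptor genes and grey for all named genes and unnamed features, with bars from the 25th to the 75th percentile. Arrays run by group, in the order of series 1332, 1332b and 2046 within KMS12 and of the repeats within H929. The red points lie between 0.047 and 0.355 on the induced arrays and at -0.384, 0.024 and -0.388 on the uninduced arrays.

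How often a feature was measured moved with these values. Features with a value on all 13 arrays had medians of 0.051, 0.029 and 0.176 on the uninduced arrays, whereas those on 7 to 9 arrays had -0.501, -0.034 and -0.600. Of the 106 genes, 39 had a value on all 13 arrays, as did 2598 of all 6948, and the median was 12 arrays in both. When features on 7 to 9, 10 to 12 and 13 arrays were centred apart (class centring below), 62 of 98 genes lay above 0 at days 4-5, with a median of 0.099. Without centring it was 62 of 98 with 0.164, and after quantile normalization 53 of 98 with 0.045. At days 2-3 the same settings left 63, 61 and 56 of 90 above 0, with medians of 0.302, 0.19 and 0.166. The median of all genes moved as well, to -0.086 without centring at days 2-3 and to -0.035 at days 4-5.

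Markers of other cells also lay higher relative to the uninduced arrays. At days 4-5 against the uninduced arrays, 9 of 9 tested T cell markers, 5 of 6 NK cell markers, 6 of 6 erythroid or stromal markers, 4 of 5 myeloid markers and 9 of 11 markers of earlier B cells lay above 0, none past the adjusted threshold. Of all genes tested, 63.1% lay above 0 there. The myeloid marker CSF1R is also 1 of the 106 genes. The array medians of the T cell markers ran from 0.043 to 0.318 at days 4-5 and from -0.412 to -0.09 uninduced. NK cell markers ran from -0.43 to 0.017 at days 4-5 and from -1.74 to 0.01 uninduced, and myeloid markers from -0.105 to 0.412 at days 4-5 and from -0.26 to 0.126 uninduced, so both overlapped. Earlier B cell markers ran from -0.041 to 0.3 at days 4-5 and from -0.423 to -0.052 uninduced. Those of the erythroid or stromal markers ran from 0.088 to 1.01 at days 4-5 and from -0.566 to 0.032 uninduced. At days 2-3, 2 of 4 myeloid markers lay above 0, with a median of -0.121. Plasma cell markers went the other way, with 1 of 10 above 0 and medians of -0.382 to -0.137 at days 4-5 against -0.004 to 0.103 uninduced. Those 10 include IRF4, the target of the hairpin, whose fall the design set. The part of these markers in the values of the cytokine and receptor genes was not tested.

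By role, the receptors of chemokines and the TNF family ligands stood highest at days 4-5. All 7 tested chemokine or chemotactic receptors lay above 0 there (median 0.756; 6 of 7 without centring, after quantile normalization and with class centring), as did 7 of 8 TNF family ligands (0.806; 6 to 7 of 8 under the same settings). Set against 0, the receptors stood at 6 of 8 with a median of 0.184, and the TNF family ligands at 7 of 8 with 0.356. Chemokine ligands lay above 0 in 18 of 22 cases (0.522; 16 to 17 of 22), and in 14 of 24 with a median of 0.065 when set against 0. Receptors of interleukins and colony stimulating factors lay above 0 in 21 of 26 cases (0.273), but in 12 of 26 after quantile normalization (-0.016). Interleukins lay above 0 in 10 of 15 (0.172) and in 7 of 15 after quantile normalization (-0.113), and TNF family receptors in 8 of 12 (0.193) and 5 of 12 (-0.041). Ligands of the TGF-beta, BMP and VEGF families lay below 0 in 4 of 5 cases (-0.143), in 4 to 5 of 5 under the other scalings, and in 3 of 5 against 0. In no role did a gene pass the adjusted threshold in KMS12.

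**Figure D2:**
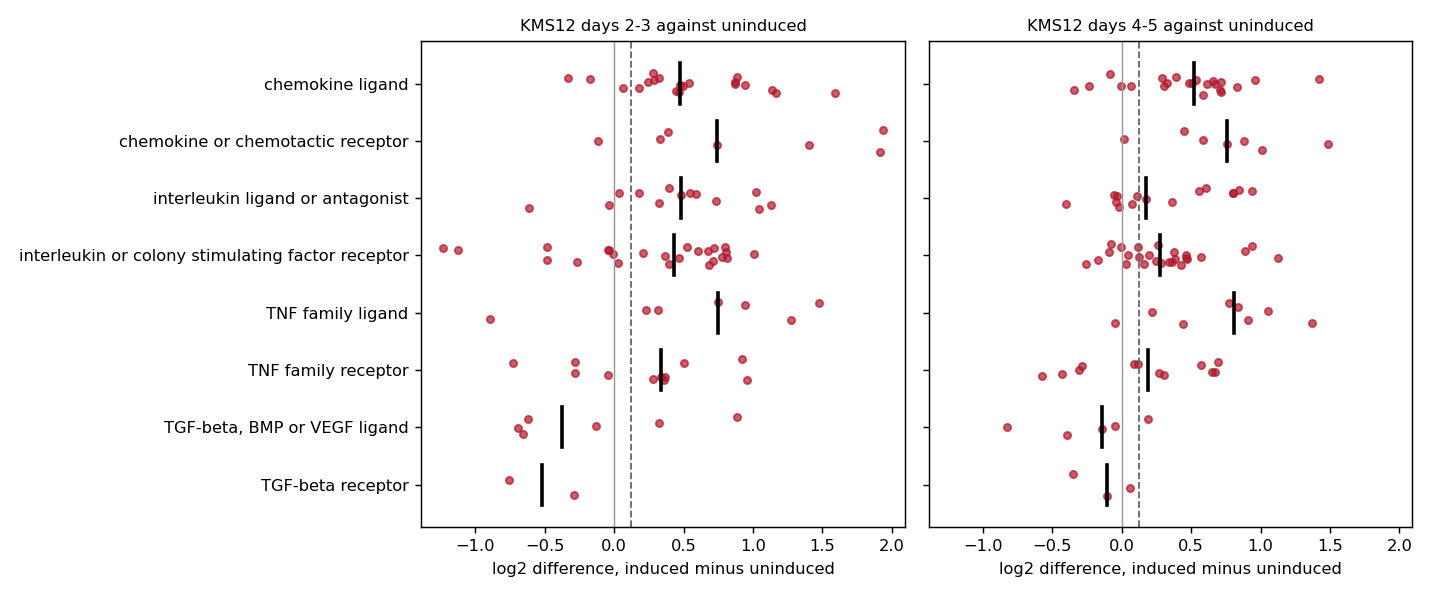
Each point is 1 gene, placed by its log2 difference (horizontal axis) and its role (rows) for KMS12 at days 2-3 (left) and days 4-5 (right) against the uninduced arrays. Black bars mark the median of a role and the dashed line the median of all genes tested, 0.123 and 0.121. The chemokine receptors and TNF family ligands have the medians furthest to the right at days 4-5, 0.756 and 0.806, and the ligands of the TGF-beta, BMP and VEGF families lie mostly left of 0.

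BMP6 moved in 1 direction on every induced array. BMP6 binds BMP receptors and activates SMAD1 and SMAD5, and in liver it controls hepcidin and so iron uptake. Its gene lies on chromosome 6. In KMS12 its ratio was 0.38, 0.04 and 0.29 uninduced, -0.33, -0.58 and -0.45 at days 2-3, -0.56, -0.53 and -0.68 at days 4-5 and -0.58 at day 7. It was -0.63 and -1.07 in H929 and -2.18 in SKMM1. All 10 induced values lay below 0 and all 3 uninduced values above it, so the groups did not overlap. Of the 83 genes with 7 or more induced values BMP6 alone lay below 0 on all of them (1.2%; all genes 1.96%). In H929 it fell by 0.85 on the log2 scale (SE 0.17, limma adjusted p = 0.04), a 1.8-fold lower level than in the control culture, in 2 of 2 arrays. At days 4-5 the mean was -0.59 ± 0.08 (SD, n = 3), against 0.24 ± 0.17 (SD, n = 3) uninduced (log2 difference -0.83, SE 0.20, adjusted p = 0.693). At days 2-3 it was -0.45 ± 0.12 (SD, n = 3) (log2 difference -0.69, SE 0.20, adjusted p = 0.111). Over the 3 lines with hairpin 2046 the mean was -1.24 (SE 0.32, adjusted p = 0.291), with SKMM1 the lowest array and a mean of -0.76 without it. Without the KMS12 array, BMP6 had an adjusted p of 0.0242 there, where 718 of all 5328 genes and features passed. As measured on all arrays, the H929 comparison alone passed, and its adjusted p was 0.601 without repeat 2, 0.151 without repeat 1 and 0.0818 with the H929 arrays fitted alone.

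VEGFA fell furthest of the 79 genes in H929, but its features disagreed. VEGFA drives the growth of blood vessels and is made by myeloma cells as well as by marrow stroma. In KMS12 its averaged ratio was 0.13, 0.12 and 0.20 uninduced, -0.62, -0.47 and -0.31 at days 2-3, -0.25, 0.38 and -0.11 at days 4-5 and -0.62 at day 7. It was -0.83 and -1.19 in H929 and -0.84 in SKMM1. The H929 values lay below every KMS12 value, those at days 2-3 lay below all uninduced ones, and those at days 4-5 spanned 0. In H929 VEGFA fell by 1.01 (SE 0.19, limma adjusted p = 0.0338). H929 lay below KMS12 at days 4-5 without passing (log2 difference -1.02, SE 0.24, adjusted p = 0.133). Of its 3 features, 1 had a value on every array and stood near 0 in H929, at -0.33 and 0.13 on the 2 repeats and -0.12 in SKMM1. The second gave -0.85 and -1.66 in H929 and -1.16 in SKMM1, and the third -1.32 and -2.05 in H929 and -1.25 in SKMM1. With the first feature alone the H929 value was -0.098 (adjusted p = 0.817), so the call rested on the other pair. The adjusted p was 0.593 without repeat 2, 0.153 without repeat 1 and 0.078 with the H929 arrays fitted alone.

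**Figure D3:**
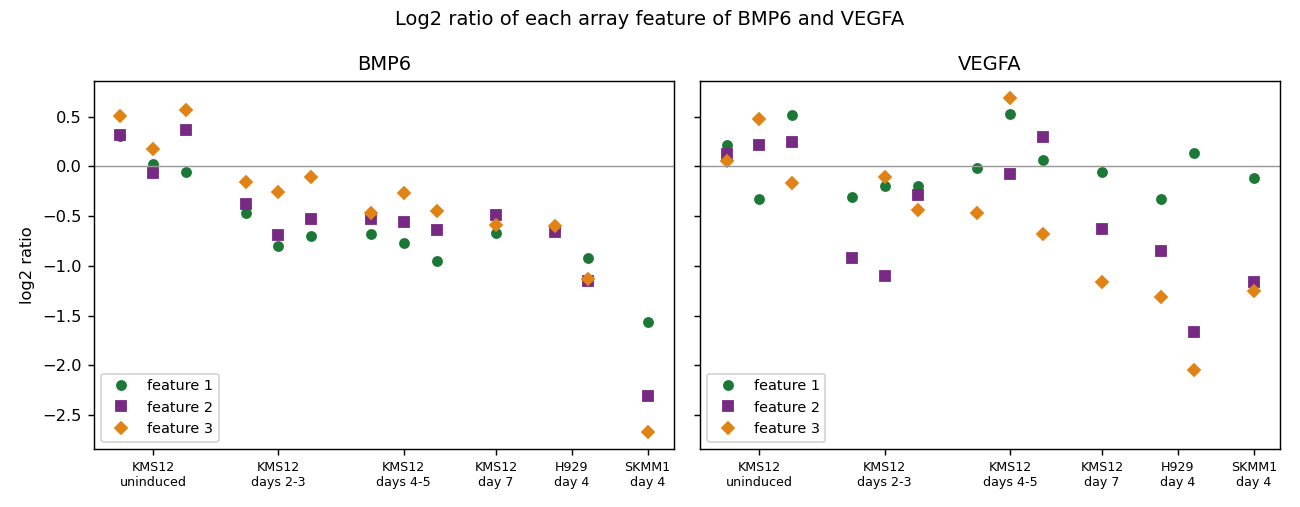
Each point is the log2 ratio of 1 array feature of BMP6 (left) or VEGFA (right) on 1 array, with colour and shape marking the feature and arrays ordered by group. All 3 BMP6 features lie below 0 on every induced array. The first VEGFA feature, with H929 values of -0.33 and 0.13, stands apart from the other 2, which reach -1.66 and -2.05 there.

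Among the receptors and other ligands of the TGF-beta family, no gene passed. TGFB1, which holds back lymphocyte growth, stood at 0.02, 0.07 and -0.26 uninduced, 0.32, 0.31 and 0.15 at days 2-3, 0.04, -0.56 and -0.84 at days 4-5 and 0.08 at day 7 in KMS12. It was 0.43 and 0.34 in H929 and 0.04 in SKMM1. Its values at days 4-5 lay below those at days 2-3 (log2 difference -0.71, SE 0.24, adjusted p = 0.266), and H929 lay above KMS12 at days 4-5 (log2 difference 0.84, SE 0.26, adjusted p = 0.203). TGFBR2, the receptor that binds TGF-beta first, stood at 0.60, -0.02 and -0.02 uninduced, -0.54, -0.81 and -0.35 at days 2-3, -0.34, -0.07 and -0.08 at days 4-5 and -0.35 at day 7 in KMS12. It was 0.37 and 0.16 in H929 and -0.91 in SKMM1. All 7 induced KMS12 values lay below 0, both H929 values lay above it, and the SKMM1 value was the lowest. In H929 feature 2 alone was measured, and that feature read -0.46, 0.09 and 0.30 in KMS12 at days 4-5. At days 2-3 TGFBR2 did not pass (log2 difference -0.75, SE 0.23, adjusted p = 0.116). Its adjusted p was 0.0405 without the series 2046 array and 0.0496 against 0. In these settings 657 of all 4518 and 682 of all 6204 genes and features passed. TGFBR3, or betaglycan, a co-receptor that presents TGF-beta, stood at -0.04, -0.08 and -0.42 uninduced, -0.11, -0.87 and -0.44 at days 2-3, -0.60, -0.31 and 0.04 at days 4-5 and 0.02 at day 7 in KMS12. It was -0.48 and -1.21 in H929 and 0.27 in SKMM1. Its H929 mean was -0.84 (SE 0.24, adjusted p = 0.0759), and -0.48 without repeat 2. It was past the threshold (adjusted p = 0.0477) when features on at least 10 arrays alone were used, where 301 of all 3796 passed. Its KMS12 windows overlapped the uninduced values. Among the others, TGFBR1 ran from -0.85 to 3.14, BMP7 from -1.81 to 0.27, TGFB2 from -0.85 to 0.91 and TGFB3 from -0.83 to 0.54.

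The transducers behind these receptors were read from a list of 20 genes, 15 of them measured. In H929, SMAD2, which TGF-beta receptors phosphorylate, fell by 0.89 (SE 0.18, adjusted p = 0.04), the 1 of 11 tested that passed (all genes 3.03%). Its adjusted p was 0.602 without repeat 2, 0.143 without repeat 1 and 0.0849 with the H929 arrays fitted alone. At days 4-5 against the uninduced arrays 13 of 14 lay above 0 (median 0.429) and none passed. In H929, 8 of the 11 lay above 0 (median 0.058).

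**Figure D4:**
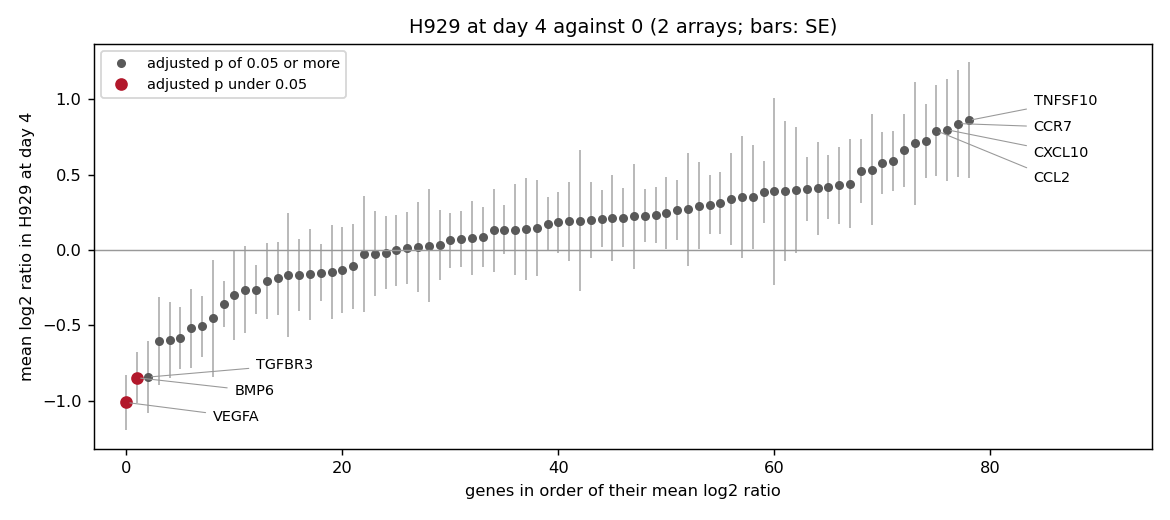
The mean log2 ratio of the 79 genes measured on both H929 arrays (vertical axis, bars giving the SE of the fit) is drawn in order of size (horizontal axis). VEGFA and BMP6, in red, are the 2 with an adjusted p under 0.05, at -1.01 and -0.85. TGFBR3 lies beside them at -0.84 without passing.

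CXCR4 and its ligand CXCL12 keep plasma cells in the bone marrow. CXCR4, the receptor, stood at -0.20, 0.01 and 0.36 uninduced, 0.59, 0.23 and 0.53 at days 2-3, 0.81, 0.61 and 1.03 at days 4-5 and 0.76 at day 7 in KMS12. It was 0.51 and 0.09 in H929 and 0.24 in SKMM1. All 10 induced values lay above 0, and those at days 4-5 lay above every uninduced value, while those at days 2-3 overlapped them. At days 4-5 the mean was 0.81 ± 0.21 (SD, n = 3), against 0.06 ± 0.29 (SD, n = 3) uninduced (log2 difference 0.76, SE 0.23, adjusted p = 0.693), which did not pass. All 6 of its features lay above 0 in that difference, at 0.49 to 1.16. In H929 only feature 1 was measured on both arrays, at 0.08 and 0.09, and the higher value of repeat 1 came from feature 6, at 0.94. CXCL12 stood at -0.17, -0.02 and -0.23 uninduced, 0.49, 0.38 and 0.04 at days 2-3, no value, -0.18 and 0.04 at days 4-5 and 0.07 at day 7 in KMS12. It was 0.02 and 0.45 in H929 and 0.13 in SKMM1. Its values at days 2-3 lay above the uninduced ones, and those at days 4-5 did not.

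Other receptors that steer B cells varied more widely. CXCR5, which draws B cells into follicles, stood at -2.71, -0.69 and -0.78 uninduced, no value, 0.45 and 0.63 at days 2-3, no value, 0.01 and 0.17 at days 4-5 and 0.06 at day 7 in KMS12. It was 0.66 and 0.14 in H929 and 0.37 in SKMM1. All 8 induced values lay above 0 and all 3 uninduced ones below it, the value of series 1332 furthest at -2.71 (log2 difference 1.48, SE 0.55, adjusted p = 0.693 at days 4-5). Without that array the difference was 0.83. Its 4 features differed by 0.22, 2.57, 0.23 and 2.04 at days 4-5. On the series 1332 uninduced array the features with the larger differences read -4.87 and -3.31, and the other with a value read 0.06. The split about 0 held for the average, not for each feature. Feature 4 read 0.53 and 0.32 in series 2046, but -0.60 in series 1332b at days 4-5, -0.05 at day 7, -0.35 in H929 and -0.02 in SKMM1. Features 1 and 3 read 0.25 and 0.11 in series 1332b uninduced. CCR7, the receptor for entry into lymph nodes, stood at -1.08, -0.39 and -0.50 uninduced, no value, 0.51 and 2.01 at days 2-3, no value, -0.33 and no value at days 4-5 and no value at day 7 in KMS12. It had 0.51 and 1.17 in H929 and no value in SKMM1. The values at days 2-3 lay above the uninduced ones (log2 difference 1.92, SE 0.46, adjusted p = 0.108), resting on 2 induced arrays, and the 1 array at days 4-5 lay at -0.33, next to the highest uninduced value of -0.39. GPR183, a receptor for oxysterols that guides activated B cells to the outer follicle, stood at -1.14, -0.12 and -0.67 uninduced, 0.35, 0.40 and -0.47 at days 2-3, 0.51, 0.57 and -0.36 at days 4-5 and 0.96 at day 7 in KMS12. It was -0.36 and -0.24 in H929 and 0.09 in SKMM1. Its series 2046 values lay below 0 in both windows and those of the other 2 series above 0. CXCR3, a receptor of activated T and plasma cells for the interferon-induced chemokines, had no value, 0.06 and -1.15 uninduced, no value, 0.84 and no value at days 2-3, no value, 0.06 and -0.26 at days 4-5 and no value at day 7 in KMS12. It had 0.79 and no value in H929 and 0.44 in SKMM1. It was blank on 6 of the 13 arrays, overlapped between days 4-5 and uninduced, and lay above both uninduced values in H929 and SKMM1.

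Among the receptors of inflammatory chemokines, no gene passed. CCR1, a receptor of CCL3 and CCL5, stood at -0.86, -0.16 and -0.94 uninduced, 1.40, -0.10 and 0.94 at days 2-3, 1.12, 0.15 and -0.21 at days 4-5 and -0.29 at day 7 in KMS12. It was -0.01 and -0.90 in H929 and -0.13 in SKMM1. Days 2-3 lay above the uninduced ones, days 4-5 overlapped them, and both H929 arrays and SKMM1 lay below 0 on average. Its features differed in sign there. In H929 repeat 1 features 2, 3 and 4 read 0.47, -0.765 and 0.27, and in SKMM1 features 1, 3 and 4 read -0.39, -0.53 and 0.53. CCR2, the receptor of CCL2, had no value, -0.03 and -0.22 uninduced, 1.04, 0.12 and -0.54 at days 2-3, 1.02, 0.28 and 0.08 at days 4-5 and 1.07 at day 7 in KMS12. It was 0.05 and 0.66 in H929 and -0.64 in SKMM1. Days 4-5 lay above both uninduced values, those at days 2-3 overlapped them, and the 3 highest were all of series 1332. CCR8 ran from -0.87 to 1.66 and CXCR6 from -0.41 to 0.46.

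Among the chemokine ligands, CCL3 separated the lines. CCL3, or MIP-1 alpha, is made by myeloma cells and promotes bone resorption. Its cDNA is nearly identical to CCL3L genes, so the spot can read both. It stood at -0.99, 0.22 and -0.38 uninduced, 0.30, 0.28 and 0.86 at days 2-3, 0.29, 0.74 and 0.30 at days 4-5 and no value at day 7 in KMS12. It was -0.59 and -0.45 in H929 and -1.10 in SKMM1. With features averaged, all induced KMS12 values lay above every uninduced value, while both H929 values and the SKMM1 value lay below 0. By feature 2 the KMS12 groups also lay apart, but it had no value in series 2046 uninduced. By feature 1 they overlapped, at 0.46 uninduced and 0.19 at days 2-3 in series 1332b and 0.08 at days 4-5 in series 2046. The difference between H929 and KMS12 at days 4-5 did not pass (log2 difference -0.96, SE 0.34, adjusted p = 0.221), nor did days 4-5 against uninduced (log2 difference 0.83, SE 0.31, adjusted p = 0.693), a difference of 0.53 without the series 1332 uninduced array. CCL4, or MIP-1 beta, whose cDNA is close to that of CCL4L genes, had no value, -0.51 and -0.91 uninduced, no value, -0.24 and -0.61 at days 2-3, 1.58, 0.76 and -0.20 at days 4-5 and no value at day 7 in KMS12. It was 0.36 and 0.09 in H929 and 0.23 in SKMM1. Both uninduced values lay below those at days 4-5 (log2 difference 1.42, SE 0.46, adjusted p = 0.693), and those at days 2-3 overlapped them.

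CCL17 was above 0 on every induced array that measured it. CCL17, or TARC, attracts T cells through CCR4. It stood at -0.59, -0.17 and no value uninduced, 0.77, 0.74 and no value at days 2-3, 0.44, 0.07 and 0.31 at days 4-5 and 2.13 at day 7 in KMS12. It had 1.11 and no value in H929 and 1.15 in SKMM1. All induced values lay above 0 and both uninduced values below it, the day 7 array highest (log2 difference 1.14, SE 0.28, adjusted p = 0.109 at days 2-3). Over the 3 lines with hairpin 2046 its mean was 0.86 (SE 0.22, adjusted p = 0.291). In the same fit without KMS12 the adjusted p was 0.0197, resting on H929 and SKMM1 alone, and 718 of all 5328 genes and features passed. CCL20, which attracts cells through CCR6, and CCL7, a monocyte attractant, also lay above 0 on every induced array with a value. CCL20 ran from -0.45 to 1.35 over all arrays and CCL7 from 0.12 to 0.74. The single uninduced value of CCL7, at 0.49, was also above 0 and lay above 5 of its 7 induced values. Of the 83 genes with 7 or more induced values, 7 lay above 0 on all of them (8.43%; all genes 3.56%). The other 4 were CXCR4, CXCR5, IL15 and LTB. These values were averages of features, and single features of CXCR5, IL15 and LTB lay below 0 on some induced arrays.

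The chemokines induced by interferon are CXCL9, CXCL10 and CXCL11, and the promoters of the first 2 hold the interferon element printed above. CXCL9 had no value, -0.36 and -0.94 uninduced, 1.37, 0.90 and 0.56 at days 2-3, -0.07, -0.29 and 0.55 at days 4-5 and -0.20 at day 7 in KMS12. It had no value and -0.10 in H929 and no value in SKMM1. The values at days 2-3 all lay above the uninduced ones (log2 difference 1.59, SE 0.35, adjusted p = 0.104), and of those at days 4-5, at day 7 and in H929 all but that of series 2046 lay below 0. CXCL10 stood at -0.52, -0.03 and -0.80 uninduced, 1.14, 0.30 and no value at days 2-3, 1.37, -0.12 and 0.29 at days 4-5 and no value at day 7 in KMS12. It was 0.92 and 0.68 in H929 and -0.10 in SKMM1. Series 1332 gave the 2 highest values, and H929 lay above every uninduced value. CXCL11 ran from -1.12 to 1.26 over the arrays. With CXCL9 the adjusted p at days 2-3 was 0.0115 without the series 2046 array of that window and 0.0357 against 0. Of all genes and features, 657 of 4518 and 682 of 6204 passed in these settings.

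Of the remaining ligands, CXCL8, the neutrophil attractant interleukin 8, stood at -0.39, 0.07 and -0.84 uninduced, 0.38, -0.0045 and -0.13 at days 2-3, 0.20, 0.33 and -0.70 at days 4-5 and -0.39 at day 7 in KMS12. It was -0.07 and 0.50 in H929 and 0 in SKMM1. Its groups overlapped in every window. CCL2 ran from -1.42 to 1.60, CCL5 from -0.52 to 0.86, CCL8 from -0.28 to 0.27, CCL11 from -1.18 to 0.46, CCL15 from -2.18 to 0.81 and CCL18 from -0.71 to 1.05. CCL19 and CCL21, which act on CCR7, ran from -1.04 to 0.48 and from -1.59 to 0.18. The neutrophil chemokines CXCL1, CXCL2 and CXCL5 ran from -0.49 to 0.80, from -0.80 to 0.44 and from -0.36 to 0.58, where near-identical cDNAs of CXCL1 and CXCL2 can share signal. CXCL16 ran from -0.50 to 0.81. XCL1 and XCL2, near-identical lymphotactins that the array cannot separate, ran from -0.73 to 0.90 and from -0.59 to 0.52. None of these passed in any comparison.

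**Figure D5:**
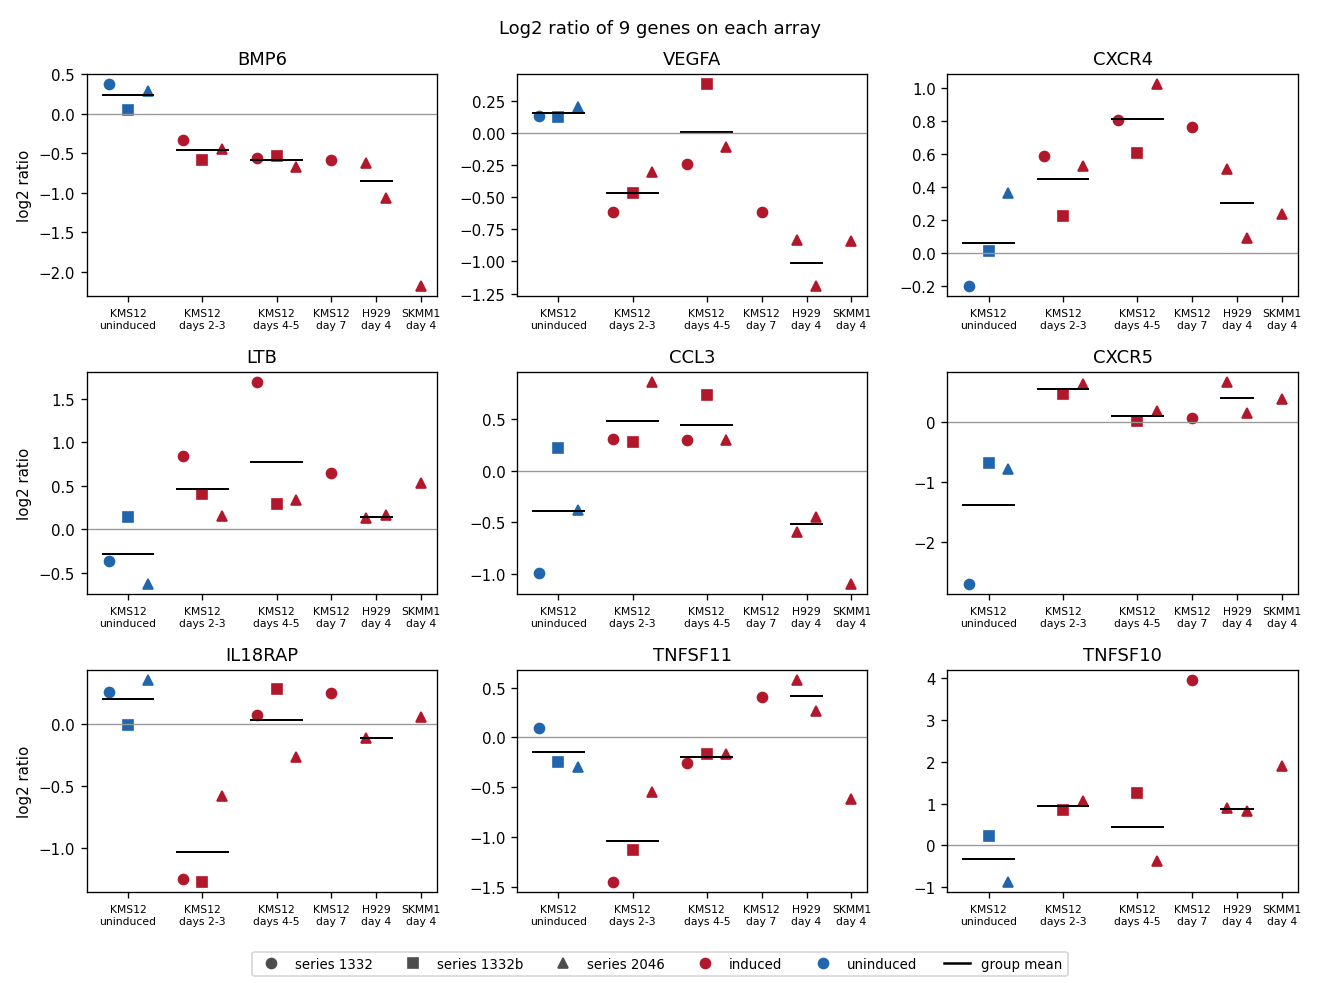
Each panel gives the log2 ratio (vertical axis, with its own scale) of 1 gene on each array, with arrays grouped by line and day, red for induced and blue for uninduced, the shape marking the series and black bars the group means. BMP6 lies below 0 on all 10 induced arrays and CXCR4, LTB and CXCR5 lie above 0 on each induced array with a value. CCL3 lies above 0 on the induced KMS12 arrays and between -1.10 and -0.45 in H929 and SKMM1, and TNFSF10, added after its values were seen, peaks at 3.96 on the day 7 array.

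Interleukin 6 sustains myeloma cells, and its receptor pairs IL6R with the shared chain IL6ST (gp130). IL6 itself was measured on 6 arrays and so fell outside the choice, between -0.79 and 0.39. IL6R stood at -0.65, 0.02 and no value uninduced, 0.75, -0.01 and -0.10 at days 2-3, 0.70, -0.11 and -0.12 at days 4-5 and 0.72 at day 7 in KMS12. It had 0.07 and -0.28 in H929 and no value in SKMM1. The induced values of series 1332 lay between 0.70 and 0.75 and those of the other 2 series between -0.12 and -0.01. IL6ST stood at -0.59, 0.09 and -0.32 uninduced, -0.85, -0.68 and -0.74 at days 2-3, -0.70, 0.48 and -0.12 at days 4-5 and -0.61 at day 7 in KMS12. It was -0.47 and -0.72 in H929 and -0.47 in SKMM1. The values at days 2-3 lay below all uninduced ones, all H929 and SKMM1 values lay below 0, and at days 4-5 series 1332b stood apart at 0.48. Against 0, the days 2-3 mean of IL6ST was -0.757 (adjusted p = 0.0436), which was not a call against the uninduced arrays. Set against 0, 682 of all 6204 genes and features passed in that window. IL11RA and IL27RA, whose receptors signal with gp130 chains, ran from -0.67 to 0.44 and from -0.29 to 0.66, and the ligand IL11 from -0.75 to 0.27.

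The common gamma chain IL2RG serves the receptors of IL2, IL4, IL7, IL9, IL15 and IL21. IL2RG stood at 0.14, -0.04 and 0.16 uninduced, 0.95, 0.95 and 0.51 at days 2-3, 0.28, -0.24 and 0.59 at days 4-5 and 0.07 at day 7 in KMS12. It was 0.65 and 0.51 in H929 and 0.54 in SKMM1. The values at days 2-3 and those of H929 and SKMM1 lay above every uninduced value, whereas those at days 4-5 spanned 0. At days 2-3 IL2RG did not pass (log2 difference 0.72, SE 0.24, adjusted p = 0.132). Its adjusted p was 0.0419 without the series 2046 array and 0.0278 against 0. In these settings 657 of all 4518 and 682 of all 6204 genes and features passed. Over the 3 lines the mean was 0.57 (SE 0.16, adjusted p = 0.291). IL15, which supports NK and memory T cells, had no value, 0.09 and -0.86 uninduced, no value, 0.65 and 0.66 at days 2-3, no value, 0.60 and 0.24 at days 4-5 and no value at day 7 in KMS12. It was 0.84 and 0.61 in H929 and 0.93 in SKMM1. With features averaged, all 7 induced values lay above both uninduced values. In series 2046 at days 4-5 feature 1 read -0.27 and feature 2 read 0.75. Feature 1 thus lay below its uninduced value of 0.07 in series 1332b. Over the 3 lines the IL15 mean was 0.63 (SE 0.20, adjusted p = 0.293, and 0.0352 without KMS12, where 718 of all 5328 passed). IL21R, the receptor of a cytokine that drives plasma cell formation, stood at -0.19, 0.11 and -0.43 uninduced, 0.61, 0.66 and 0.24 at days 2-3, -0.17, 0.12 and 0.27 at days 4-5 and -0.85 at day 7 in KMS12. It was 0.28 and 0.14 in H929 and 0.28 in SKMM1. Days 2-3, H929 and SKMM1 lay above every uninduced value, and days 4-5 and day 7 did not. At days 2-3 its adjusted p was 0.128, and 0.0402 without the series 2046 array, where 657 of all 4518 passed.

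IL7, which acts on early lymphocytes, stood at -0.09, -0.14 and no value uninduced, 0.45, 0.33 and 0.05 at days 2-3, no value, -0.82 and -0.22 at days 4-5 and 0.09 at day 7 in KMS12. It was 0.01 and 0.16 in H929 and 0.37 in SKMM1. Its values at days 4-5 lay below those at days 2-3 (log2 difference -0.80, SE 0.26, adjusted p = 0.267), and days 2-3 lay above the uninduced values. Other chains of these receptors gave IL2RB from -0.40 to 1.06, IL4R from -0.19 to 0.46, IL7R from -0.34 to 0.31, IL9R from -0.58 to 2.14 and IL15RA from -1.26 to 0.24. IL13RA1 ran from -0.78 to 1.12, IL13RA2 from -1.60 to 0.35, and the ligands IL2 from -0.41 to 0.84 and IL13 from -1.42 to 0.44.

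IL18RAP gave the smallest p of the genes at days 2-3. IL18RAP is the accessory chain of the interleukin 18 receptor, and its promoter holds the interferon element at -246 to -237 on the other strand. It stood at 0.25, -0.01 and 0.35 uninduced, -1.25, -1.27 and -0.58 at days 2-3, 0.08, 0.28 and -0.27 at days 4-5 and 0.25 at day 7 in KMS12. It had -0.12 and no value in H929 and 0.06 in SKMM1. The 3 values at days 2-3 lay below every other array. Against uninduced this gave log2 difference -1.23, SE 0.26, adjusted p = 0.104, and days 4-5 against days 2-3 gave log2 difference 1.06, SE 0.26, adjusted p = 0.241. Without the series 2046 array of days 2-3, the adjusted p was 0.00492 for the first and 0.0133 for the second, and it was 0.0243 against 0 at days 2-3. Without that array 11 of 63 genes passed at days 2-3, against 657 of all 4518. Between the windows 382 of all 4536 passed without it, and 682 of all 6204 passed at days 2-3 against 0. The partner chain IL18R1 ran from -0.48 to 1.26 and IL18 itself from -0.84 to 0.75.

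IL16, a chemoattractant of CD4 cells, stood at -0.61, 0.25 and -0.33 uninduced, 1.04, 0.60 and 0.73 at days 2-3, 0.70, 0.39 and 0.62 at days 4-5 and 2.59 at day 7 in KMS12. It was 0.65 and 0.40 in H929 and -0.42 in SKMM1. All 7 induced KMS12 values lay above every uninduced value, with day 7 highest, and SKMM1 lay below 0. The day 7 value averaged features at 1.30 and 3.89. The difference was 1.02 at days 2-3 (SE 0.25, adjusted p = 0.104) and 0.80 at days 4-5 (SE 0.25, adjusted p = 0.693). Without the series 2046 array of days 2-3 the first had an adjusted p of 0.0297, and also when set against 0. In these settings 657 of all 4518 and 682 of all 6204 genes and features passed. IL24, a cytokine of the interleukin 10 family with the interferon element in its promoter, stood at -0.32, 0.08 and -0.44 uninduced, 0.39, 0.34 and 0.23 at days 2-3, 0.73, 0.44 and -0.02 at days 4-5 and no value at day 7 in KMS12. It was 0.66 and 0.52 in H929 and 0.17 in SKMM1. H929 lay above every uninduced value, with a mean of 0.59 against 0 (SE 0.20, adjusted p = 0.114).

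IL10, which restrains inflammation and supports B cells, stood at -1.33, 0.25 and -0.30 uninduced, no value, 0.16 and no value at days 2-3, 0.27, -0.26 and -1.05 at days 4-5 and 0.31 at day 7 in KMS12. It was -0.06 and 0.76 in H929 and -0.60 in SKMM1. Its windows overlapped, with series 1332 at -1.33 uninduced. IL10RB, a chain shared by the receptors of interleukin 10 and of lambda interferons, stood at 0.05, 0.29 and 0.49 uninduced, -0.41, -0.30 and 0.09 at days 2-3, -0.15, 0.14 and 0.06 at days 4-5 and -0.25 at day 7 in KMS12. It was -0.26 and -0.91 in H929 and -1.40 in SKMM1. SKMM1 was its lowest array, and H929 lay below KMS12 at days 4-5 without passing (log2 difference -0.60, SE 0.26, adjusted p = 0.304), by -0.28 without H929 repeat 2 and -0.93 without repeat 1. Its features disagreed in H929, where feature 1 read -1.09 and -1.40 and feature 2 read 0.58 and -0.43. In SKMM1 they read -2.26 and -0.54. IL10RA ran from -0.54 to 0.46. CSF2RB, the chain shared by the receptors of GM-CSF, interleukin 3 and interleukin 5, stood at -0.17, -0.49 and -0.49 uninduced, no value, 0.95 and -0.09 at days 2-3, 0.53, 0.38 and -0.65 at days 4-5 and 0.57 at day 7 in KMS12. It had 0.57 and 0.25 in H929 and no value in SKMM1. Its induced values spanned 0 in both windows. The partners IL3RA and IL5RA ran from -0.94 to 1.52 and from -1.01 to 2.01, and CSF1R and CSF3R from -1.60 to 0.55 and from -0.16 to 1.17.

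The remaining interleukins and receptors are given by their range. Of the interleukin 1 family, IL1R1 ran from -1.07 to 1.14, the decoy receptor IL1R2 from -2.02 to 1.01, IL1RL1 from -0.81 to 2.01, the antagonist IL1RN from -0.63 to 0.25 and IL36RN from -1.74 to 0.45. IL12RB1, whose promoter holds the composite element, ran from -2.02 to 0.67, and IL23A from -0.84 to 1.82. IL17B ran from -0.40 to 0.68, IL17RA from -0.82 to 1.02, IL19 from -1.12 to 0.33, IL22RA1 from -0.59 to 0.48 and IL32 from -0.53 to 1.05. None of them passed in any comparison. The JAK-STAT transducers behind most of these receptors, 22 listed and 18 measured, lay above 0 in 9 of 18 cases at days 4-5 (median -0.005) and in 9 of 15 in H929 (0.119). None of them passed. The interleukin 1 and Toll signalling genes lay above 0 in 7 of 8 cases at days 4-5 (0.296), the interferons and their receptors in 5 of 6 (0.107) and the G protein genes of chemokine signalling in 6 of 11 (0.021), again with none past the threshold.

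Lymphotoxin, a TNF family cytokine that organises lymphoid tissue, is a trimer of LTA and LTB. LTB stood at -0.37, 0.15 and -0.63 uninduced, 0.84, 0.41 and 0.15 at days 2-3, 1.69, 0.29 and 0.34 at days 4-5 and 0.65 at day 7 in KMS12. It was 0.13 and 0.17 in H929 and 0.53 in SKMM1. All 10 induced values lay above 0, and the KMS12 values of each induced group lay above every uninduced value (log2 difference 1.06, SE 0.37, adjusted p = 0.693 at days 4-5). Without the series 1332 array at day 5 the difference was 0.60. Those values were averages, and by features 1 and 3 the groups overlapped. In series 1332b and 2046 feature 1 read -0.12 and -0.90 uninduced, -0.14 and -0.04 at days 2-3 and -0.01 and 0.24 at days 4-5. Feature 3 read 0.645 and -0.36 uninduced there, 0.89 and 0.17 at days 2-3 and 0.67 and 0.08 at days 4-5. LTA stood at -1.29, 0.02 and -0.33 uninduced, no value, 0.12 and 0.70 at days 2-3, no value, 0.25 and 0.36 at days 4-5 and no value at day 7 in KMS12, with no value in H929 or SKMM1. Its 4 induced values lay above all 3 uninduced ones, the lowest of which was series 1332 at -1.29. TNF, encoded beside them on chromosome 6, had no value, 0.07 and -0.85 uninduced, no value, 0.26 and no value at days 2-3, no value, 1.06 and -0.95 at days 4-5 and no value at day 7 in KMS12. It was 0.52 and -0.13 in H929 and 1.04 in SKMM1. Its values spread on both sides of 0 within every group of more than 1 value.

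TNFSF4, or OX40 ligand, which costimulates T cells, stood at -1.35, -0.13 and -0.62 uninduced, 0.46, no value and 1.08 at days 2-3, 0.55, 0.95 and 0.52 at days 4-5 and 0.84 at day 7 in KMS12. It had no value and -0.08 in H929 and no value in SKMM1. All 6 induced KMS12 values lay above 0 and all 3 uninduced ones below it, and the 1 H929 value lay near 0. At days 4-5 the mean was 0.67 ± 0.24 (SD, n = 3), against -0.70 ± 0.62 (SD, n = 3) uninduced (log2 difference 1.37, SE 0.34, adjusted p = 0.693). TNFSF11, or RANK ligand, which drives osteoclasts, stood at 0.09, -0.24 and -0.29 uninduced, -1.46, -1.13 and -0.55 at days 2-3, -0.25, -0.17 and -0.17 at days 4-5 and 0.41 at day 7 in KMS12. It was 0.58 and 0.26 in H929 and -0.62 in SKMM1. Days 2-3 lay below all uninduced values, days 4-5 lay within their range, and H929 lay above KMS12 at days 4-5. In H929 feature 2 alone was measured, and it had no value in series 1332 at days 4-5. In SKMM1 feature 1 read -1.33 and feature 2 read 0.09. Days 4-5 against days 2-3 gave log2 difference 0.85, SE 0.25, adjusted p = 0.241, or an adjusted p of 0.0171 without the series 2046 array of days 2-3. In that setting 382 of all 4536 genes and features passed. TNFSF13, or APRIL, a survival factor of plasma cells, stood at -0.01, -0.02 and -0.49 uninduced, no value, 0.44 and -0.33 at days 2-3, no value, 0.26 and -0.17 at days 4-5 and no value at day 7 in KMS12. It had no value and 0.60 in H929 and -0.15 in SKMM1. Both KMS12 windows overlapped the uninduced values.

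TNFSF10, or TRAIL, which triggers cell death through TNFRSF10A and TNFRSF10B, was chosen after its values were seen. It had no value, 0.23 and -0.89 uninduced, no value, 0.84 and 1.05 at days 2-3, no value, 1.25 and -0.36 at days 4-5 and 3.96 at day 7 in KMS12. It was 0.90 and 0.82 in H929 and 1.90 in SKMM1. It lay above every uninduced value at days 2-3, at day 7, in H929 and in SKMM1, with day 7 at 3.96, and at days 4-5 series 2046 lay below 0. It had 1 feature, and its H929 mean was 0.86 (SE 0.39, adjusted p = 0.221). TNFSF9 ran from -1.16 to 0.77.

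Among the TNF receptors, TNFRSF1A, the widespread receptor of TNF, stood at 0.42, 0.22 and 0.34 uninduced, 0.05, -0.01 and 0.09 at days 2-3, -0.19, 0.18 and 0.12 at days 4-5 and 0.11 at day 7 in KMS12. It was -0.13 and -0.40 in H929 and -0.56 in SKMM1. Every induced value lay below every uninduced value, though the KMS12 values at days 2-3 and days 4-5 lay about 0, and H929 and SKMM1 lay below 0. TNFRSF1B, the receptor found mainly on lymphocytes, had no value, -0.09 and -1.03 uninduced, 0.74, 0.24 and 0.21 at days 2-3, 0.99, -0.91 and -2.68 at days 4-5 and 0.20 at day 7 in KMS12. It was 0.40 and 0.38 in H929 and 0.50 in SKMM1. Days 2-3, H929 and SKMM1 lay above the uninduced values, and days 4-5 ran from 0.99 in series 1332 to -2.68 in series 2046. The value of -2.68 averaged features at -0.71 and -4.65. The TRAIL receptors ran from -0.95 to 0.56 for TNFRSF10A, from -0.34 to 0.50 for TNFRSF10B, from -1.10 to 0.17 for the decoy TNFRSF10C and from -0.82 to 0.57 for the decoy TNFRSF10D. TNFRSF11B, the decoy of RANK ligand, ran from -0.69 to 1.13, TNFRSF14 from -2.19 to 1.76, TNFRSF18 from -1.15 to 1.12, TNFRSF25 from -0.68 to 0.56, TNFRSF6B from -0.39 to 1.5, TNFRSF8 (CD30) from -0.39 to 0.34 and TNFRSF9 from -0.60 to 1.09. None of the TNF receptors passed in any comparison. Of the family members outside the choice, CD27, CD40 and FAS among them, 5 of 8 measured lay above 0 at days 4-5 (median 0.299). Of the receptors' adaptors 9 of 11 did (0.193). In both lists none passed.

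Over the 3 lines with hairpin 2046, 49 of 84 genes lay above 0 (median 0.066, against 0.029 over all 5134, of which 53.6% lay above 0). Without the KMS12 array 8 of 84 passed, 4 higher and 4 lower, against 718 of all 5328. Without centring 37 of 84 lay above 0, after quantile normalization 39 of 84 and with class centring 40 of 84. In H929 53 of 79 lay above 0 (median 0.176, against 0.074 over all 4858, of which 56.8% lay above 0), and without centring 45 of 79. H929 against KMS12 at days 4-5 had 40 of 77 above 0, with a median of 0.044. Between the windows of KMS12, 40 of 94 lay higher at days 4-5 than at days 2-3, with a median of -0.065. The medians of all genes in the same comparisons were 0.027 and 0.016, with 52.2% and 51.4% above 0.

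Of the 106 genes, 57 had 2 or more features, and 56 of these gave values for days 4-5 minus uninduced. Their features shared 1 sign in 40 genes and had both signs in 16. Just inside the choice, 14 genes had a best feature with exactly 7 arrays, with values of -1.74 to 3.14. Just outside it, 15 genes had 6 arrays, with values of -2.89 to 1.46, among them IL1B, IL4, IL6, CCR4, CCL22 and TNFSF13B (BAFF).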

How the data were processed

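The deposited values were 2-colour log ratios, taken here as log2 of the IRF4 hairpin culture (Cy5, per the labels) over the luciferase hairpin culture (Cy3, per the labels), with no dye swap. No source used here names the log base, background correction or normalization of the authors. The small number of arrays limits precision. Of 15246 features, 10169 carried 1 symbol, 4 several and 5073 none. Blank cells stayed missing. From each array the median of 6879 often measured features (at least 10 arrays, and 2 of each KMS12 group of 3) was subtracted. Features on fewer than 7 arrays were left out and features of 1 symbol averaged, without imputation. All 13 arrays entered 1 limma fit as 6 group means (limma 3.58.1, R 4.3.3, moderated by eBayes), which assumes that a lone array varies like the other groups. The 3 lines had a fit of their own with 1 value per line, H929 by its mean. A gene needed 2 values in each group compared. P-values were adjusted by Benjamini-Hochberg over all genes and unnamed features (threshold 0.05). The genes and lists were chosen with earlier results of these data known. Genes named with all values were the 4 of smallest p in each comparison with values in both groups, those called, and a fixed list of well known members. IRF4 was shown as the target. Alternatives changed the filter, centring, averaging of features, arrays fitted, the uninduced reference and the series block, and left out each array. Arrays of one series deviated together between the uninduced arrays and either window (correlations of 0.112 to 0.211 over 6 same-series pairs), a pairing read from the data and the series labels. Over all 9 same-series pairs the correlations ran from -0.076 to 0.362, and over 18 pairs of different series from -0.371 to 0.395. The fit was tested on simulated data with noise drawn independently for each array. Of changes of 1 log2 unit, 28.8% passed at days 4-5 against uninduced and 51.9% in H929 against 0. For changes of 2 log2 units the shares were 75% and 85.9%. Many changes of 1 log2 unit would thus not pass. The lowest correlation between 2 arrays over features was -0.328, in 1 of 78 pairs, and the direction given by the dyes was kept.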

Additional observations from a re-analysis of the deposited data

Results flagged for a closer look

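In 3 genes, with features averaged, both H929 arrays lay on one side of 0 and all 3 KMS12 arrays at days 4-5 on the other. For CCL3 the H929 mean was -0.52 and the KMS12 mean 0.44, a difference of -0.964 (limma adjusted p = 0.221). TGFBR2 had a mean of 0.26 in H929 and of -0.17 in KMS12, a difference of 0.43 (adjusted p = 0.442). TNFSF11 had 0.42 in H929 and -0.20 in KMS12, a difference of 0.617 (adjusted p = 0.312). None passed. The KMS12 array with the same hairpin and day as H929, series 2046 at day 4, stood at 0.30 for CCL3, -0.08 for TGFBR2 and -0.17 for TNFSF11, on the side of the other KMS12 arrays. In H929, however, TGFBR2 was measured by feature 2 alone. That feature read -0.46, 0.09 and 0.30 in KMS12 at days 4-5, so by it only series 1332 lay opposite to H929. TNFSF11 was likewise measured in H929 by its feature 2 alone. That feature of TNFSF11 had no value, -0.16 and -0.35 in KMS12 at days 4-5. By it series 1332 could thus not be set against H929.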

How the results depend on the processing

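Without its series 2046 array, days 2-3 against uninduced had 11 genes past the threshold (0 to 11 over the arrays left out in turn, of 0 with all), and 10 when set against 0. Among all genes the counts were 657 and 682. Days 4-5 against uninduced gave 0 under every alternative. Days 4-5 against days 2-3 gave 0 to 2 and the 3 lines 0 to 8 over the arrays left out (382 and 718 of all genes at most). The 2 calls in H929 became 0 without either repeat or with its arrays fitted alone, where all genes gave 6, 1 and 0 against 147. All genes gave 301 under the stricter filter and 273 after quantile normalization. H929 against KMS12 gave 0 members throughout and 0 to 11 of all genes, against 2. With series as a replicate block the 3 KMS12 comparisons had 0 genes called, among members as among all genes, and so the block changed no call. Between days 4-5 and days 2-3, 2 of the 3 same-series pairs did not correlate above 0.1.

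Some named genes turned sign. At days 2-3 this was CCL4 (-0.424 against 0, -0.101 with class centring), CCR2 (-0.016 with the replicate block, -0.083 to 0.708 over the arrays left out), TGFBR2 (0.165 with no filter), TNFRSF1A (0.043 against 0) and TNFSF13 (-0.221 with class centring, -0.001 after quantile normalization). At days 4-5, against 0, it was CXCL12 (-0.068), CXCL8 (-0.056), CXCR3 (-0.098), IL10 (-0.348), IL6ST (-0.114), TNFRSF1A (0.039) and VEGFA (0.009). After quantile normalization it was CXCL12 (-0.102), IL10 (-0.392), IL21R (-0.011) and IL6ST (-0.24). Without centring it was CXCL12 (-0.069), IL10 (-0.047) and IL2RG (-0.034), and with class centring CXCL12 (-0.106) and TNFSF13 (-0.194). With 1 feature per gene it was IL21R (-0.4), IL6ST (-0.426) and VEGFA (0.053), with the stricter filter IL6ST (-0.022) and with none TGFBR2 (0.1). Over the arrays left out it was IL10 (-0.324 to 0.467), IL2RG (-0.066 to 0.349), IL6ST (-0.135 to 0.453) and TNFRSF1B (-1.238 to 0.6). The cause was not tested. Of the other alternatives for named genes, 927 kept direction and side of the threshold, 18 passed and 7 no longer did. Blank features and the 13 arrays, not a count of reads, limit what could be detected.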
